A study of Homo sapiens with 12 samples.

Results

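The regions described here are stretches of DNA with low 5-methylcytosine (5mC) that lay apart from dense clusters of measured CpGs in SV-HUC-1 cells, a human urothelial epithelial line immortalised with SV40. The genome was divided into tiles of 1000 bases, and a tile was a member when it lay on chromosomes 1 to 22, held 5 to 17 measured CpGs, had no tile with 46 or more measured CpGs among the 5 tiles on either side, and had a mean 5mC below 20% over all its CpGs and all 6 samples. Of 133537 tiles that met the count and distance parts of this rule, 5658 (4.24%) were members, out of 210465 tiles with at least 5 measured CpGs and 379247 with any. The 5mC values of DCBQ and control samples together chose the members, so their low 5mC is a description and carries no test. The members held 53688 measured CpGs in the 5mC table and 51811 in the 5hmC table.

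The cells had been exposed for 3 days to DCBQ (2,6-dichloro-1,4-benzoquinone, a byproduct of water disinfection) or to a blank solution, called control below. Each condition had 3 samples with a 5mC value and 3 with a 5-hydroxymethylcytosine (5hmC) value, made from reduced representation bisulfite (RRBS) and oxidative RRBS libraries. RRBS enriches CpG-rich restriction fragments, so a tile can hold many CpGs of which few are measured. The cells were 1 established line, and nothing in the labels states that the 3 samples of a group were grown separately, so the SDs and p-values reflect how far these samples scatter, and that scatter may be technical. The depth behind each fraction is unknown, and no counting interval is given. Values are printed as percent, positions are hg38, and differences are in percentage points as DCBQ minus control.

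Most CpGs of the human genome outside CpG islands are methylated. Exceptions include active promoters and enhancers, where bound transcription factors and polymerases go together with low methylation, and 5hmC is the oxidised form of 5mC made by TET enzymes during demethylation. Low-methylated stretches far from gene starts are therefore often read as candidate distal regulatory elements. The gene names below give position only, since a nearest gene need not be the gene that an element acts on.

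The members were not uniformly distal, and many were not poor in CpGs. Starts were taken from RefSeq windows on GRCh38.p14, which covered 82% of 18408 protein-coding genes and 65.9% of 16908 lncRNA genes on the 21 autosomes other than chromosome 8, whose starts were not used here. For genes with no listed start, the distance to either end of the gene was used instead. Of 5417 members on those chromosomes, 2269 (41.9%) lay within 1 kb of a listed start and 1356 (25%) held one. A further 360 (6.65%) lay within 1 kb of an end of a gene whose start was not listed, 681 (12.6%) lay in between, and 2107 (38.9%) were over 5 kb from both. Only the last set fits a distal label. Methylated tiles that met the same count and distance rule had 2.77% within 1 kb of a listed start and 81.2% over 5 kb from both, and unmethylated tiles with 46 or more CpGs had 74.3% and 6.84%.

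The sequence of the start windows went against the term CpG-poor for most members that held a start. A window ran from 250 bases before to 50 bases after a start. The 1777 windows whose start lay in a member held a median of 20 CG dinucleotides in 300 bases, against 9 for windows in methylated isolated tiles, 34 in unmethylated dense tiles and 14 over all 33557 windows. A GC content above 50% with an observed to expected CG ratio above 0.6 was met by 1282 member windows (72.1%), against 19.5%, 95.5% and 46.8% in those sets. In the 1226 distinct windows that lay wholly inside a member, 6231 of 24002 CGs (26%) were measured. In 82.9% of these windows the 300 bases alone held more CGs than were measured in the whole tile. Few measured CpGs therefore do not mean few CpGs, and the regions are called members below, by the rule that chose them. The other 495 windows (27.9%) missed the composition criterion.

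**Figure D1:**
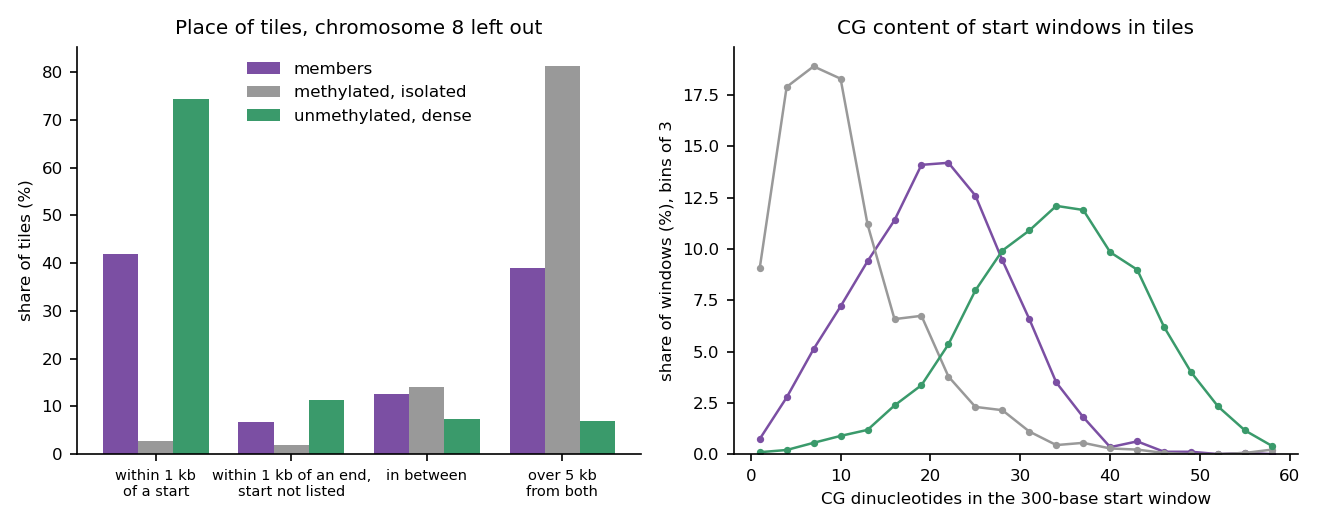
Left, share of tiles (%) by place for members, methylated isolated tiles and unmethylated dense tiles on autosomes with listed starts; right, share of start windows (%) by number of CG dinucleotides in 300 bases, in bins of 3. Members were split between gene starts (41.9%) and distal places (38.9%), and their windows lay between the other classes in CG content, with a median of 20.

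The following sequences show both kinds of member start, so that a reader can see what the tiles hold. Each is the 250 bases before a start (RefSeq, GRCh38.p14), 5′ to 3′ on the gene's strand, and capitals mark the CGs that were measured in the 5mC table. The first 3 are CG-rich and belong to members named below by their difference between groups. RXRG encodes a retinoid receptor, SMC3 a cohesin subunit and DDX47 an RNA helicase.
RXRG, chr1:165445127-165445376, minus strand: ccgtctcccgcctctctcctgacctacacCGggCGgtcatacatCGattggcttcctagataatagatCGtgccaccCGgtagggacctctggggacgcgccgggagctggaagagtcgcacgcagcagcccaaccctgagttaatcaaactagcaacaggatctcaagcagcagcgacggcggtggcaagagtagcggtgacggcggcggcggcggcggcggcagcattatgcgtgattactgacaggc
SMC3, chr10:110567445-110567694, plus strand: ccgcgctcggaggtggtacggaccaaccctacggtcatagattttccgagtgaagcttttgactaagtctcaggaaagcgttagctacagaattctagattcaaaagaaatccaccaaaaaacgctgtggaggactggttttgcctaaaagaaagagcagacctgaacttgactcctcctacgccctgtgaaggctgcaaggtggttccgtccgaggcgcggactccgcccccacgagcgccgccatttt
DDX47, chr12:12813096-12813345, plus strand: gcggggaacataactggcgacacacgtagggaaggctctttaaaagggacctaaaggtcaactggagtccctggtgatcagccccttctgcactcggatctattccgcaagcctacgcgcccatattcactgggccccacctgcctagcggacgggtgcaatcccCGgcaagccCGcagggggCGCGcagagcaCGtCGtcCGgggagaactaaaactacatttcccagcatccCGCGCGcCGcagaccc
The next 3 are poor in CG and belong to epithelial genes. ELF3 encodes an epithelial transcription factor, LAMB3 a laminin chain of the basement membrane and KRT5 a keratin of basal cells.
ELF3, chr1:202010337-202010586, plus strand: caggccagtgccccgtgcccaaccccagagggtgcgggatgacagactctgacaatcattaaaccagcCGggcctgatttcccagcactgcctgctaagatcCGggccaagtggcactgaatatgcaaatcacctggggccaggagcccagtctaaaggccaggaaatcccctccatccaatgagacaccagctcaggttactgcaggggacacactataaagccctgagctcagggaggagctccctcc
LAMB3, chr1:209652330-209652579, minus strand: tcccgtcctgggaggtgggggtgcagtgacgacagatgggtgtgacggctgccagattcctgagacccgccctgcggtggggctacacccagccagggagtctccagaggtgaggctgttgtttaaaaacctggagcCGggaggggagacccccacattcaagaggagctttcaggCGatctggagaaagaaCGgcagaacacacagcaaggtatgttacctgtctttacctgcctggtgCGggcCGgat
KRT5, chr12:52520395-52520644, minus strand: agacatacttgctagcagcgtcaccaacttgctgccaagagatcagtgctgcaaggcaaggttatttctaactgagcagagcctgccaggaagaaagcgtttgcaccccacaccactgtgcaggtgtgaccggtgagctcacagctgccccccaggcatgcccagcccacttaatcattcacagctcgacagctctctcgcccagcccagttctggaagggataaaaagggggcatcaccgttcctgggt

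The RXRG stretch held 24 CGs, of which 5 were measured, and the DDX47 stretch held 20, of which 11 were measured. None of the 17 CGs before the SMC3 start was measured, and the 12 measured CpGs of that member lay downstream of the window. The ELF3 stretch held only 4 CGs, 2 of them measured, and the LAMB3 stretch 10 with 5 measured. The KRT5 stretch held 6 CGs, none of them measured. The observed to expected CG ratio of the whole windows was 0.972 for RXRG, 0.987 for SMC3 and 0.869 for DDX47, against 0.269 for ELF3, 0.413 for LAMB3 and 0.301 for KRT5.

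Short motifs were counted in the 1777 member windows on both strands, beside all 33557 windows, with overlaps between motifs left in. The core of the GC box, GGGCGG, was in 57.4% of member windows and in 45.0% of all windows. The ETS-type core, CCGGAAG, was in 20.1% of member windows and 10.2% of all windows. The CCAAT motif was in 40.5% of member windows and 34.4% of all windows. The core-promoter motif TATAAA was in 6.25% of member windows, against 11.6% of all windows. The AP-1 form, TGANTCA, was in 5.51% of member windows and 7.68% of all windows. The E-box form, CACGTG, was in 8.61% of member windows and 7.15% of all windows. The GC box, ETS and E-box letters include CG, and the windows compared differ in CG content. A match describes letters in the window and not a bound site.

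The members read 5.92% ± 0.121 5mC in DCBQ samples and 6.33% ± 0.130 in controls (SD, n = 3 each). The DCBQ samples read 5.79%, 6.00% and 5.98%, and the controls 6.48%, 6.27% and 6.24%. Every DCBQ sample was below every control, and the difference was -0.406 points (SE 0.103), which is -6.41% of the control level. Since the members were chosen on 5mC, no test was run on this mean. Over all 210465 tiles the difference was larger in points, -0.526 (SE 0.118), and when each sample was centred on its own mean over all tiles the members' difference turned to 0.121 points. Relative to the control level the order was the other way, with -6.41% for members and -0.787% for all tiles. Mean 5hmC of the 5429 members with at least 5 CpGs in that table was 2.22% ± 0.0480 in DCBQ samples and 2.22% ± 0.0698 in controls, a difference of 0.00730 points (SE 0.0489). The DCBQ samples read 2.25%, 2.17% and 2.25% 5hmC, and the controls 2.17%, 2.18% and 2.30%, so the groups overlapped.

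In points, the difference was larger for members farther from gene starts, which also held more 5mC. Members within 1 kb of a listed start read 3.30% ± 0.134 in DCBQ samples and 3.48% ± 0.0857 in controls (SD, n = 3 each), a difference of -0.178 points (SE 0.0918). Members within 1 kb of an end of a gene with no listed start read 4.40% and 4.68%, a difference of -0.284 (SE 0.0752). Members over 5 kb from both read 8.52% ± 0.123 in DCBQ samples and 9.14% ± 0.236 in controls, a difference of -0.616 (SE 0.154). The groups did not overlap in any of these sets, and relative to the control level the differences were -5.10%, -6.07% and -6.74%. The 241 members on chromosome 8 read 7.80% ± 0.183 and 8.68% ± 0.177, a difference of -0.882 points (SE 0.147), or -10.2% of the control level. Whether these sets differ from each other in their response was not tested.

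Among members that held a start, the composition of the start window went with the level. The 1002 members with a GC- and CG-rich window read 2.81% ± 0.108 5mC in DCBQ samples and 2.91% ± 0.0816 in controls, and the groups overlapped. The 354 members with no such window read 4.02% ± 0.126 in DCBQ samples and 4.26% ± 0.170 in controls, without overlap, a difference of -0.247 points (SE 0.122). Their 5hmC was 1.73% ± 0.0566 and 1.71% ± 0.213, against 1.31% ± 0.0362 and 1.30% ± 0.0337 for the rich windows.

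**Figure D2:**
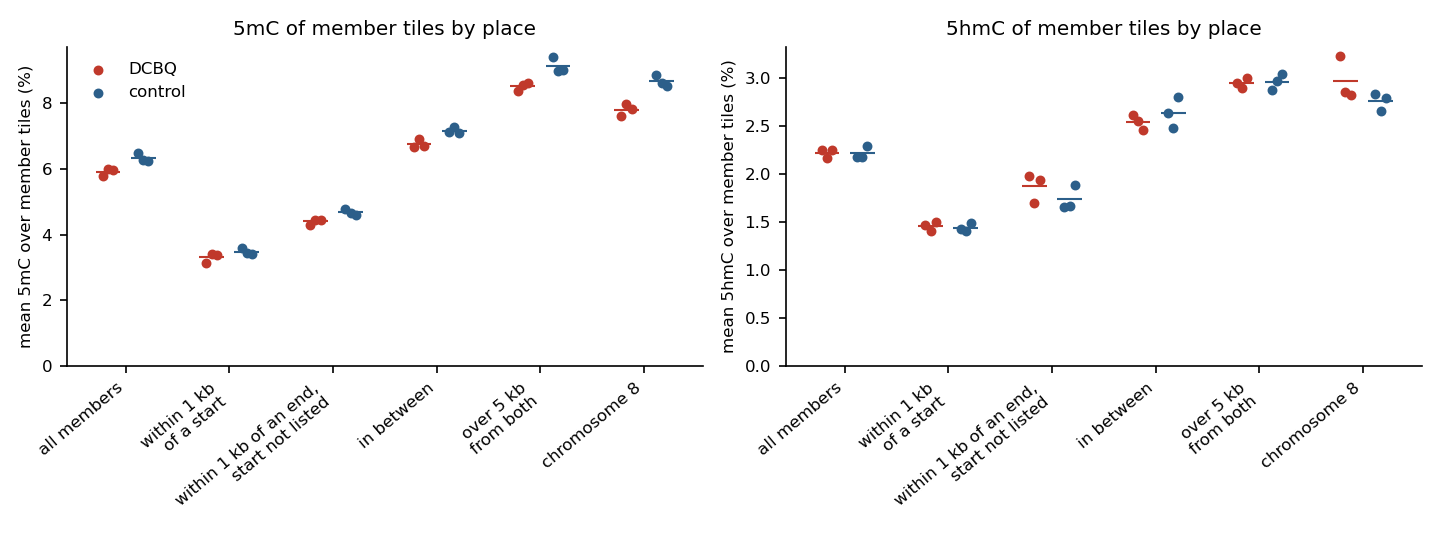
Mean 5mC (left, %) and 5hmC (right, %) over member tiles in each sample, DCBQ left of control, by place; points are samples and short lines are means of 3. 5mC was lower in every DCBQ sample than in every control for each place shown, and 5hmC overlapped in each.

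The level itself spread widely below the threshold. Of the 5658 members, 444 read under 1% 5mC, 1553 from 1% to 2%, 1430 from 2% to 5%, 784 from 5% to 10% and 1447 from 10% to 20%. Members within 1 kb of a listed start made up 979 of the 1553 between 1% and 2%, whereas members over 5 kb from both made up 888 of the 1447 between 10% and 20%. The groups overlapped below 2%, where DCBQ samples read 0.707% and controls 0.737% in the lowest band. Between 5% and 10%, DCBQ samples read 7.11% ± 0.2004 and controls 7.73% ± 0.293, and between 10% and 20% they read 14.6% ± 0.0994 and 15.5% ± 0.243, a difference of -0.910 points (SE 0.151). Among all tiles that met the count and distance rule the counts rose again above the threshold, with 1938 tiles between 20% and 30% and 46212 between 80% and 90%. Just inside the threshold lay tiles near C1orf174 (19.98%) and ZNF37A (19.99%), and just outside it tiles near CSMD1 (20.01%) and DIPK2A (20.01%).

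5hmC followed 5mC across members. It read 0.742% in DCBQ samples and 0.719% in controls where 5mC was under 1%. Where 5mC was from 10% to 20% it read 4.22% and 4.27%. The lowest band was close to mitochondrial DNA, which read 0.628% and 0.653% 5hmC over 245 CpGs. In that band 5mC was at a similar level, 0.707% and 0.737%. Whether such low 5hmC values lie above the error of the method was not tested. Over 5429 members the levels of the marks correlated with r = 0.753 (Spearman rho = 0.822), given as a description since both marks come from the same cells and possibly the same libraries. Unmethylated dense tiles gave r = 0.822 over 8296 tiles, so the positive relation was not particular to members. In methylated isolated tiles the correlation ran the other way, r = -0.475 over 121752 tiles. Between samples, members correlated with r = 0.849 to 0.868 in 5mC and 0.413 to 0.488 in 5hmC, over 15 pairs of samples each, so the level of a single member was less repeatable in 5hmC.

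5mC rose within a few kb of the members. Tiles 1 kb to the left of a member read 32.7% ± 0.117 5mC in DCBQ samples and 33.1% ± 0.135 in controls (2554 tiles with a measured CpG), and tiles 3 kb to the left 66.0% ± 0.114 and 66.8% ± 0.320. Around members within 1 kb of a start the adjacent tile read 25.5% and 25.8% on the left and 23.3% and 23.6% on the right, and 3 kb away it read 71.9% and 72.9% on the left. Around members over 5 kb from both, adjacent tiles already read 43.6% and 44.3% on the left, and tiles 3 kb away 63.4% and 64.0%. Adjacent tiles were therefore lower, and tiles 3 kb away higher, around start-near members than around distal ones, a difference that was not tested. 5hmC was also lowest in the member, at 1.46% and 1.44% near starts, and read 3.98% ± 0.295 in DCBQ samples and 3.70% ± 0.159 in controls 3 kb to the left.

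**Figure D3:**
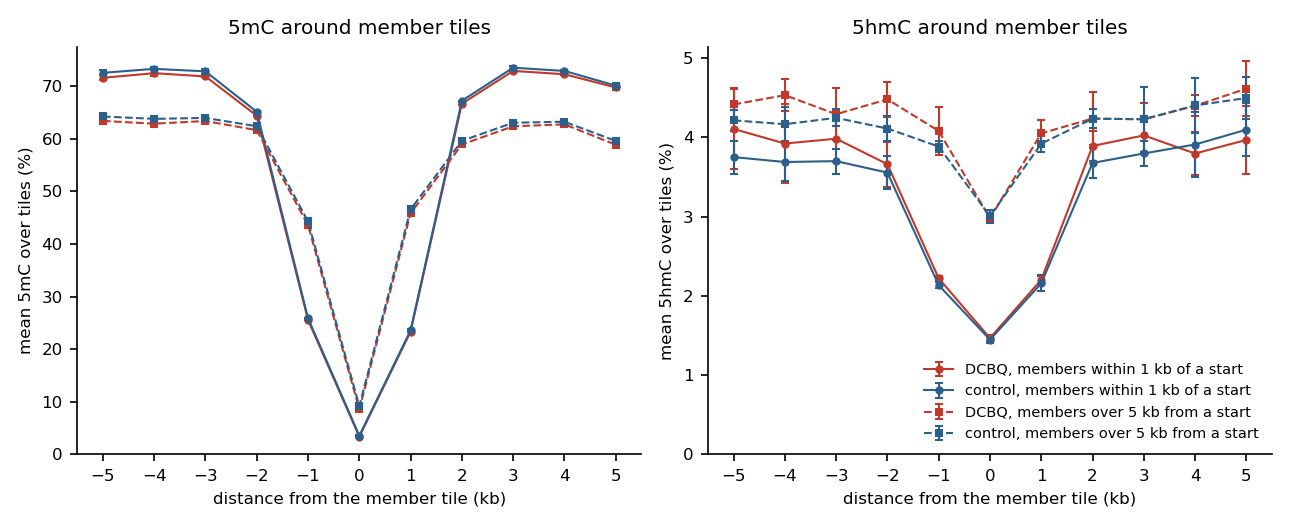
Mean 5mC (left, %) and 5hmC (right, %) of tiles with a measured CpG up to 5 kb on either side of members, for DCBQ and control samples; points are means of 3 samples and bars their SD. 5mC in the adjacent left tile was 25.5% and 25.8% around members near a start, and 43.6% and 44.3% around distal members.

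Most members were low at every CpG. In 3825 members (67.6%) each measured CpG averaged below 20%, in 494 (8.73%) at least 1 CpG averaged 50% or more, and in 142 at least 1 reached 80%. Near listed starts 85.2% of members were low throughout and 4.28% had a CpG at 50% or more. Over 5 kb from starts and such ends the shares were 49.8% and 14.1%. The 11 members at 0% in every sample included tiles at RAB33B (12 CpGs), BRD2 (8 CpGs), C6orf136 (7) and KLRG1 (6). RAB33B encodes a Rab GTPase and BRD2 a bromodomain protein that binds acetylated histones. Over single CpGs, 53.5%, 50.3% and 50.5% of member CpGs were at 0 in DCBQ samples, against 48.2%, 49.0% and 50.5% in controls.

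Across the genome the 5mC difference had 1 sign. The mean over members was lower in DCBQ on all 22 autosomes, by -0.0826 points on chromosome 13 to -0.951 points on chromosome 20, and the groups did not overlap on 16 of them. The chromosomes share samples and are not separate tests. Over all tiles every DCBQ sample was also below every control, by -0.526 points on average. Centring on all tiles turned the members' mean difference to 0.121 points. Values by chromosome are not given for all tiles, so these counts do not show a trait particular to members. 5hmC was lower on 13 autosomes and higher on 9, and the groups overlapped on each.

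**Figure D4:**
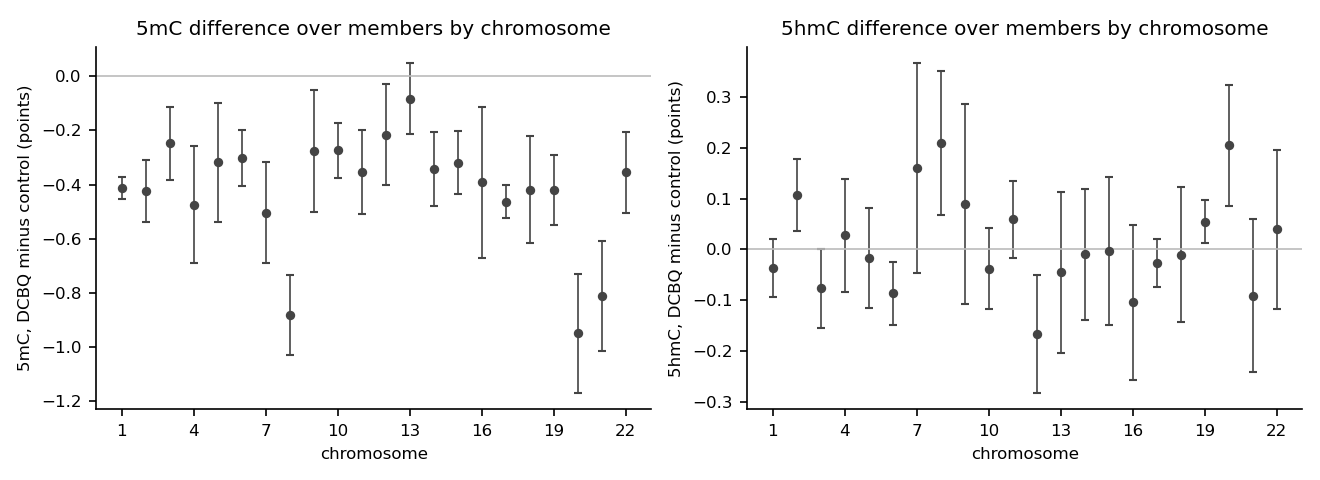
Difference in mean 5mC (left) and 5hmC (right) over members, DCBQ minus control in percentage points, by chromosome; bars are SE from 3 samples per group. All 22 values are below 0 for 5mC, from -0.951 to -0.0826, and 13 of 22 for 5hmC. Over all tiles the 5mC difference was -0.526 points.

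No single member passed the test. limma, fitted on the mean level of every tile with at least 5 CpGs, called 0 of 210428 tiles for 5mC (0% of tiles tested, smallest Benjamini-Hochberg adjusted p = 0.708) and 0 of 201896 for 5hmC (0% of tiles tested, smallest adjusted p = 0.974). At an unadjusted p under 0.05, 453 of 5647 tested members (8.02%) were lower in DCBQ and 186 (3.29%) higher in 5mC, beside 4.47% and 1.73% of all tiles tested. Unmethylated dense tiles had 1.53% and 0.735%. The groups did not overlap for 469 members that were lower (8.31%) and 208 that were higher (3.68%), beside 8.11% and 3.39% of all tiles, so by that measure the members were near the background. With each sample centred on its mean over all tiles the counts at p under 0.05 became 260 lower and 490 higher, and with no mean-variance trend in the fit they became 223 and 65. Without DCBQ replicate 1 they were 415 and 287. Shares over all tiles are not given for these other fits. Their counts therefore do not show whether members stay above the background. In all, 58.6% of members read lower in DCBQ with a median difference of -0.215 points, beside 59.8% and -0.332 points over all tiles.

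In 5hmC, 206 of 5415 tested members (3.804%) were lower in DCBQ and 228 (4.21%) higher at an unadjusted p under 0.05, beside 2.08% and 2.75% of all tiles tested. The groups did not overlap for 255 lower (4.71%) and 289 higher (5.34%), beside 4.39% and 5.55% of all tiles. Centring each sample gave 266 lower and 161 higher at p under 0.05, so the split between directions depended on centring. It also depended on single samples. Leaving out DCBQ replicate 1, 2 or 3 gave 161 lower and 278 higher, 146 and 273, and 161 and 279, and leaving out control replicate 1, 2 or 3 gave 258 and 181, 248 and 151, and 241 and 179. Shares over all tiles are not given for the centred fit or for the fits without 1 sample. In the main fit the median difference of members was 0.0165 points, beside 0.0700 over all tiles, and 49.0% read lower, beside 47.2%.

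The 5 lower members with the smallest p for 5mC were a tile each in AGAP1, C4orf50 and BMERB1, and tiles whose nearest genes were TAFA5 and SLITRK3. The AGAP1 tile (chromosome 2, 235703001 to 235704000, inside the gene and 86751 bases from the nearest listed start) read 0.483%, 0.733% and 0.717% in DCBQ samples, against 4.53%, 4.23% and 4.75% in controls. AGAP1 encodes an ARF GTPase-activating protein of endosomal trafficking. The difference was -3.86 points (SE 0.292, limma adjusted p = 0.708). It came mainly from 1 of 6 CpGs, at 235703371, which was at 0% in all 3 DCBQ samples and at 15.2%, 16.7% and 14.3% in controls.

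The other 4 tiles showed larger differences at higher levels. The tile near SLITRK3 (chromosome 3, 165351001 to 165352000, 153892 bases from that gene for a synaptic adhesion protein) read 13.5%, 14.3% and 14.2% in DCBQ samples, against 23.5%, 20.6% and 21.2% in controls. The difference was -7.77 points (SE 0.929), the widest among the 5. Its CpG at 165351081 read 30.8%, 36.2% and 23.3% in DCBQ samples, against 51.9%, 44.0% and 59.3% in controls. The tile near TAFA5 (chromosome 22, 48344001 to 48345000, 144553 bases from the gene, which encodes a secreted protein, and 4470 bases from the nearest listed start) read 12.5%, 11.7% and 12.3%, against 18.8%, 18.6% and 17.4%. The C4orf50 tile (chromosome 4, 5980001 to 5981000) read 12.4%, 11.3% and 12.9%, against 17.7%, 17.6% and 17.5%, with 7 of 9 CpGs lower on average. The BMERB1 tile (chromosome 16, 15435001 to 15436000, 912 bases from an end of the gene) read 6.30%, 5.94% and 7.20%, against 12.9%, 10.6% and 12.4%. In each of these 5 tiles the groups were apart, and the adjusted p in limma was 0.708 for all 5.

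The 5 higher members lay at STING1, RXRG and SMC3, in TTC34, and nearest to ASB7. The STING1 tile (chromosome 5, 139482001 to 139483000, its centre 258 bases from an end of the gene) read 20.26%, 20.19% and 20% 5mC in DCBQ samples, against 13.6%, 15.1% and 14.3% in controls. STING1 encodes the adaptor that senses cyclic dinucleotides in innate immunity. The difference was 5.80 points (SE 0.668, limma adjusted p = 0.708). Within the tile, 6 of 8 CpGs were higher on average, and the CpG at 139482856 read 60%, 55.6% and 55.2% in DCBQ samples, against 43.8%, 41.7% and 46.3% in controls.

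The RXRG tile (chromosome 1, 165445001 to 165446000) read 22.7%, 21.4% and 21.4% in DCBQ samples, against 17.2%, 16.4% and 16.2% in controls, a difference of 5.24 points (SE 0.742). Adjacent CpGs before the start carried most of it. The CpG at 165445346 read 61.5%, 53.6% and 50%, against 33.3%, 40% and 26.2%, and the one at 165445342 read 48.3%, 47.1% and 50.8%, against 39.0%, 34.8% and 38.8%. These are the first CGs in capitals in the RXRG sequence above, and the next 3 capital CGs read 15.7%, 5.33% and 5.33% on average in DCBQ samples, against 14.8%, 6.83% and 6.00% in controls.

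The TTC34 tile (chromosome 1, 2697001 to 2698000) rested on 1 CpG. The tile read 9.56%, 9.76% and 10.8% in DCBQ samples, against 3.76%, 1.84% and 4.84% in controls, and its CpG at 2697581 read 75%, 62.5% and 44.4%, against 11.8%, 6.90% and 22.2%. The other 8 CpGs averaged from 0% to 10.97% in DCBQ samples and from 0% to 7.20% in controls. The SMC3 tile (chromosome 10, 110567001 to 110568000) read 2.80%, 3.05% and 2.64%, against 0.208%, 0.758% and 1.21%. Its CpG at 110567867 read 19.0%, 23.9% and 21.0% in DCBQ samples, against 0%, 9.10% and 0% in controls. The tile whose nearest protein-coding gene was ASB7 (chromosome 15, 100713001 to 100714000) lay 61300 bases from that gene. That tile read 11.2%, 9.94% and 11.4%, against 7.64%, 7.83% and 7.28%. The adjusted p in limma was 0.708 for all 5 higher members. The STING1 and RXRG tiles read 20% or more in every DCBQ sample, and the SLITRK3 tile did in every control. These tiles met the 20% threshold only by their mean over all 6 samples.

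In 9 of these 10 members the 5hmC difference had the sign opposite to the 5mC difference. In the STING1 tile 5hmC read 3.58% ± 0.979 in DCBQ samples and 6.34% ± 1.71 in controls, and in the SLITRK3 tile, with 4 CpGs in that table, 8.92% ± 1.86 and 3.603% ± 2.03. The TTC34 CpG at 2697581 read 0% 5hmC in each DCBQ sample, against 21.6%, 26.4% and 0% in controls. The SMC3 CpG at 110567867 read 2.86%, 0% and 0%, against 12.5%, 10.5% and 7.41%. At 235703371 in AGAP1 5hmC was 11.5%, 5.26% and 0%, against 0% in each control. At 165445346 in RXRG its means were close, 6.59% and 6.35%. Over 5402 members with a difference in both marks, 59.3% had opposite signs, and the differences correlated with r = -0.362. Unmethylated dense tiles were close to this, with 58.9% and r = -0.333, and over methylated isolated tiles these were 71.2% and r = -0.618. The derivation of 5hmC from the libraries is not stated in the labels, and whether a shared library contributes to the opposite signs was not tested.

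**Figure D5:**
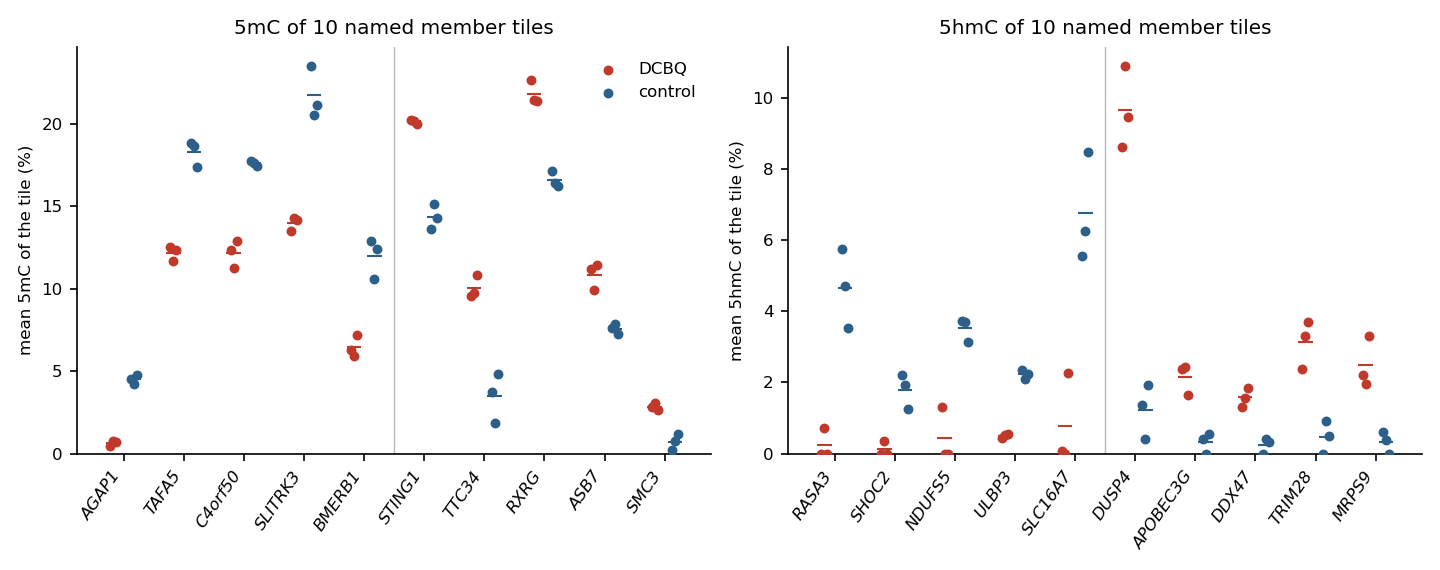
Mean 5mC (left, %) and 5hmC (right, %) of the 10 members per mark with the smallest limma p and groups apart, DCBQ left of control; points are samples, short lines means of 3, and the grey line separates members lower in DCBQ from those higher. The widest gap is in 5hmC near DUSP4, 8.63% to 10.9% in DCBQ samples against 0.397% to 1.92% in controls, and no member passed the adjusted test.

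Among members named for 5hmC, a tile near DUSP4 had the widest difference. It lies on chromosome 8, 29315001 to 29316000, 17064 bases from DUSP4, which encodes a MAP kinase phosphatase. Its 5hmC was 8.63%, 10.9% and 9.45% in DCBQ samples, against 1.35%, 0.397% and 1.92% in controls, a difference of 8.43 points (SE 1.57, limma adjusted p = 0.974). Of 6 CpGs, 5 were higher in DCBQ on average, and those at 29315446, 29315451 and 29315453 read 11.4%, 14.5% and 16.8% in DCBQ samples, against 0%, 0.901% and 1.80% in controls. 5mC of the tile was 11.2% ± 1.94 in DCBQ samples and 15.0% ± 3.34 in controls.

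The other members higher in 5hmC were at low levels. A tile at TRIM28, a corepressor of KRAB zinc finger proteins, read 2.37%, 3.30% and 3.70% in DCBQ samples, against 0%, 0.908% and 0.505% in controls. This difference came mainly from 1 of 6 CpGs, at 58545200. That CpG read 11.1%, 16.7% and 17.9% 5hmC in DCBQ samples and 0% in each control. Its 5mC went the other way, with means of 1.87% in DCBQ samples and 12.4% in controls. The tile at the DDX47 start shown above read 1.32%, 1.56% and 1.85%, against 0%, 0.401% and 0.321%. The tile at MRPS9, a mitochondrial ribosomal protein gene, read 2.21%, 1.97% and 3.31%, against 0.611%, 0.379% and 0%, and a tile 2258 bases from APOBEC3G, a cytidine deaminase gene, read 2.37%, 2.44% and 1.63%, against 0.420%, 0% and 0.547%. Members lower in 5hmC lay in SLC16A7, RASA3, NDUFS5, SHOC2 and ULBP3. SLC16A7, a monocarboxylate transporter gene, had the widest difference of these, with 0.0758%, 0% and 2.27% in DCBQ samples, against 5.57%, 6.25% and 8.48% in controls. Neighbouring CpGs of this tile repeated the same values. Those at 59597041 and 59597061 both read 12.5%, 12.5% and 20% in controls. Its 5mC scattered, with 14.7%, 2.09% and 2.68% in DCBQ samples, against 2.72%, 3.57% and 10.2% in controls. Depth is unknown, and whether few reads lie behind these values was not tested. RASA3, a Ras GTPase-activating protein gene, read 0%, 0.714% and 0%, against 5.75%, 4.71% and 3.52%, and NDUFS5, a complex I subunit gene, 1.30%, 0% and 0%, against 3.74%, 3.71% and 3.15%. The adjusted p in limma was 0.974 for all 10 members named for 5hmC.

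Some members read high 5hmC in every sample, with the groups overlapping. The highest lowest-sample values were in tiles whose nearest protein-coding genes were CCDC59, GOSR1, UBE3A, C16orf78 and OR11H1, at distances of 219303, 123409, 122728, 15804 and 3427192 bases. The GOSR1 tile (chromosome 17, 30651001 to 30652000) read 13.9% ± 5.24 5hmC in DCBQ samples and 16.4% ± 1.28 in controls, and the CCDC59 tile (chromosome 12, 82132001 to 82133000) read 12.6% ± 2.08 and 11.2% ± 2.38. 5mC of the GOSR1 tile scattered widely, with 9.66%, 46.7% and 19.5% in DCBQ samples, against 2.5%, 3.64% and 23.8% in controls. 5mC of the CCDC59 tile was 8.58%, 38.3% and 17% in DCBQ samples, against 16.9%, 17.2% and 16.2% in controls. All 5 tiles had 8 or fewer CpGs. Values also repeated between CpGs, and in the GOSR1 tile those at 30651050 and 30651056 both read 20%, 16.7% and 11.1% 5hmC in DCBQ samples. Depth is unknown, and whether few reads lie behind these levels was not tested.

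Members overlapped genes for small structural RNAs at a higher rate than the other classes of tile did, given as a description. tRNA genes, which RNA polymerase III transcribes, lay in 53 members (0.937%), in 39 methylated isolated tiles (0.0305%) and in 19 unmethylated dense tiles (0.229%). The 53 ranged from 0.737% to 17.4% 5mC with a median of 2.11%, and averaged 3.41%, 3.85% and 4.11% in DCBQ samples, against 3.98%, 4.05% and 3.94% in controls. Of these, 17 were on chromosome 6, which carries the main cluster of human tRNA genes, and 13 on chromosome 1. A tile with the selenocysteine tRNA gene TRU-TCA1-1 (chromosome 19, 45478001 to 45479000) read 0.706%, 1.31% and 2.13% in DCBQ samples, against 1.61%, 1.03% and 1.38% in controls, and lay 2822 bases from FOSB.

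snRNA genes lay in 16 members (0.283%), against 15 methylated isolated tiles (0.0117%) and 2 unmethylated dense tiles (0.0241%). They included RNU2-1, the U2 RNA of the spliceosome (0.712% over all samples), RNU5E-1 (0.788%) and RN7SK, whose RNA holds the elongation factor P-TEFb inactive (1.81%). Copies of U1, RNU1-2 and RNU1-3, read 12.2% and 9.29%. Many tRNA and snRNA genes have near-identical copies, and whether reads were placed on the right copy was not tested. Of the 2107 members over 5 kb from listed starts and such ends, 44 (2.09%) held a tRNA or snRNA gene, so distal in that measure does not mean without a gene.

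Most members stood alone. Adjacent members formed 360 runs of 2 tiles, 23 of 3 and 5 longer ones, and 4843 members had no adjacent member. The longest run was 7 tiles on chromosome 2, 91505001 to 91512000, with no annotated gene, close to the centromere. It read 12.6% ± 0.616 5mC in DCBQ samples and 14.8% ± 1.63 in controls. Another run of 5 tiles followed at 91513001 to 91518000, with 13.7% ± 1.13 and 12.3% ± 0.696. A run of 5 tiles on chromosome 4, 49102001 to 49107000, read 16.3% ± 0.642 in DCBQ samples and 16.3% ± 1.39 in controls. A run of 4 tiles there, 49109001 to 49113000, read 11.8% ± 0.564 and 11.4% ± 1.18. None of these runs on chromosomes 2 and 4 overlapped an annotated gene. Whether their reads were placed correctly was not tested.

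A run of 5 tiles on chromosome 1, 629001 to 634000, covered MTND1P23, MTND2P28, MTCO1P12, MTCO2P12 and MTATP6P1, which are nuclear copies of mitochondrial genes. It read 5.48% ± 0.829 5mC in DCBQ samples and 7.14% ± 2.83 in controls. Mitochondrial DNA itself read 1.14% ± 0.201 and 1.19% ± 0.168 over 269 CpGs. Whether reads of mitochondrial DNA contribute to this run was not tested.

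Long genes held the most members, counted inside the gene or within 10 kb. DLGAP2 and RBFOX1, neuronal genes of 971 and 2474 kb, had 14 each, DPP6 13 and CSMD1 12. TTC34 had 12 in only 165 kb, with 5mC from 1.06% to 15.8%, and averaged 8.25% ± 1.08 in DCBQ samples and 7.52% ± 0.702 in controls. At DPP6, a potassium channel subunit gene, 9 of 13 members were lower in DCBQ, with a mean of 9.67% ± 0.255 in DCBQ samples and 11.9% ± 0.543 in controls, a difference of -2.25 points (SE 0.346). DPP6 was singled out after its values were seen. Members at ERCC1, a DNA repair gene (7 members), and FLAD1, a flavin synthesis gene (5 members), had medians of 2.73% and 2.11%.

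Of all protein-coding genes, 4593 of 19122 (24.0%) had a member inside or within 10 kb. Of urothelial and epithelial transcription factors 8 of 23 (34.8%) did, and of urothelial and basal markers 13 of 36 (36.1%). Shares were 4 of 25 (16.0%) for AP-1 and YAP-TEAD genes, 8 of 30 (26.7%) for genes of the NRF2 and quinone response, 8 of 28 (28.6%) for bladder cancer drivers, 5 of 22 (22.7%) for fibroblast, 4 of 22 (18.2%) for leukocyte and endothelial, and 10 of 18 (55.6%) for housekeeping genes. No test was run on these shares, and gene length and CpG coverage differ between lists. As a check of the labelled cell type, tiles at starts of urothelial transcription factors were below 20% 5mC in 11 of 11 measured genes and those of urothelial markers in 12 of 13, beside 9531 of 11350 protein-coding genes. For leukocyte and endothelial markers 1 of 2 was below 20%. Starts of fibroblast markers were low in 9 of 9, so low 5mC at a start does not separate these cell types.

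Members at epithelial genes had low mean 5mC by the rule that chose them. Of the tiles nearest to listed epithelial genes, 3 are given here. The ELF3 tile (chromosome 1, 202010001 to 202011000) read 1.70%, 1.99% and 3.24% in DCBQ samples, against 1.82%, 3.06% and 1.88% in controls. The KRT5 tile (chromosome 12, 52520001 to 52521000) read 1.86%, 2.81% and 1.91%, against 2.37%, 2.35% and 2.13%, and the LAMB3 tile (chromosome 1, 209652001 to 209653000) 3.14%, 2.48% and 0%, against 2.00%, 1.18% and 2.20%. In all 3 the groups overlapped, with differences of 0.0593 (SE 0.542), -0.0867 (SE 0.353) and 0.0800 points (SE 0.812). Of 11 members at urothelial transcription factors 6 read lower in DCBQ, with a median difference of -0.133 points, and of 17 at urothelial markers 13 did, with a median of -0.352, beside 59.8% and -0.332 points over all tiles.

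Members at stress and cancer genes gave no adjusted call either. The tile 96 bases from HMOX1, the heme oxygenase gene of the NRF2 response, read 1.52%, 1% and 0.640% in DCBQ samples, against 0.640%, 0.720% and 1.32% in controls. The tile at TXNRD1, a thioredoxin reductase gene, read 2.17%, 1.70% and 3.97%, against 2.32%, 1.42% and 0.840%. Of 8 members at NRF2 and quinone genes 5 read lower, with a median of -0.351 points. A tile inside ERBB2, a receptor tyrosine kinase gene (chromosome 17, 39688001 to 39689000), also held a start window of another gene, PGAP3. That tile read 5.43%, 8% and 5.63%, against 2.83%, 5.77% and 2.62%, and the groups overlapped (limma adjusted p = 0.799). Its values are therefore not those of the ERBB2 start alone. Of 12 members at cancer drivers 6 read lower, of 13 at housekeeping genes 6, of 5 at fibroblast genes 2, of 5 at leukocyte and endothelial genes 2, and of 4 at AP-1 and YAP-TEAD genes 0.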

How the data were processed

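RRBS and oxidative RRBS libraries of SV-HUC-1 cells were made in triplicate per condition. The authors deposited a 5mC table and a 5hmC table whose 6 columns each hold, per CpG, a fraction between 0 and 1. Per the file names these are merged CpGs with a minimum of 5 reads. BSMAP 2.90, Trim Galore, cutadapt and hg38 are named in the submitters' processing notes, without settings or roles. The step from libraries to 5mC and 5hmC is not stated there. Read depth per CpG was not used here, so precision rests on 3 samples per group. 5mC columns were matched to oxidative RRBS samples and 5hmC columns to RRBS samples by condition and number.

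Here fractions were averaged per tile of 1000 bases and printed as percent. limma 3.58.1 (R 4.3.3) compared the groups in each tile with at least 5 CpGs, using lmFit and eBayes with a mean-variance trend (two-sided, Benjamini-Hochberg adjusted over all tiles, threshold 0.05), and tiles with no variation dropped out of the test. The fit was tried on simulated data, with shifts placed only in tiles above the 5mC threshold of members. That trial therefore does not show how well the fit finds changes in members. Means over members carry no p, and an exact permutation test of 3 against 3 cannot go below 0.1. Tables were handled with Python 3.11.15, numpy 2.4.6 and pandas 2.3.3. Starts, windows and gene positions came from RefSeq tables (GRCh38.p14). Exons, introns and UTRs were not used. All 6231 measured CpGs in the windows checked fell on a CG of the sequence.

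The members and gene lists (8 lists) were chosen with earlier results of these data known. The naming rule took, per mark and direction, the 5 with the smallest limma p and groups apart, the 5 longest runs, the 5 with the highest lowest-sample 5hmC, the 5 lowest in 5mC with the most CpGs, and up to 3 per list nearest to a listed gene. Some members that this rule names are not reported here. Alternatives changed the 5mC threshold, CpG counts, distance, tile grid, averaging, centring, variance trend, scale, replicate block and each sample in turn.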

Additional observations from a re-analysis of the deposited data

How the results depend on the processing

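The mean 5mC difference of members, -0.406 points, was -0.232 with members below 10% and -0.615 with members below 30%, and turned to 0.121 with each sample centred on all tiles. Leaving out 1 sample gave -0.452 to -0.331. The mean 5hmC difference, 0.00730, was -0.122 after centring and -0.0137 to 0.0476 leaving out 1 sample. The count of 639 members at unadjusted p under 0.05 in 5mC was 407 with members below 10%, 319 with 8 to 17 CpGs and 288 with no variance trend, against 675 to 711 leaving out 1 sample. For 5hmC, 434 became 215 with 8 to 17 CpGs, 192 with no trend and 399 to 440 leaving out 1 sample. The smaller sets hold fewer tiles by construction (4211 and 3360 members). Same-numbered samples showed no clear shared pattern (correlations of same-numbered deviations 0.000522, 0.00643 and -0.00385 in 5mC, -0.0150, 0.00924 and -0.0345 in 5hmC). The labels do not state whether such samples were grown or handled together, and these correlations cannot decide it. With the replicate block, 813 members were at p under 0.05 in 5mC and 480 in 5hmC. Shares over all tiles are given for the main fit only, so counts under other fits have no background beside them. No tile was called in the main fit, with no trend, on a logit scale, with the replicate block, after centring or without 1 sample. Adjusted calls are not given for the shifted tile grid or for CpGs in both tables. Unknown depth limits what single CpGs and single tiles can show, including tiles with more than 8 CpGs.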
